A study of Equus caballus with 24 samples.

Results

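Genes that code for 8 transcription factors of pituitary development, PITX1, LHX3, LHX4, HESX1, SIX6, ISL1, MSX1 and SOX2, were followed through RNA-seq of horse tissue. They were chosen by symbol, and each matched 1 of the 24232 genes with read counts and 1 of the 24248 genes with RPKM values. The 24 libraries came from the pituitary and from the epiphysis (bone end) of a long bone of female Debao ponies (DPs), a breed of small stature, and female Mongolian horses (MHs), with 3 libraries in each of 8 groups. DPPJ and DPPA are the juvenile (under 3 years) and adult (over 3 years) DP pituitary, MHPJ and MHPA are the same stages of the MH pituitary, and DPLBJ, DPLBA, MHLBJ and MHLBA are the corresponding long bone groups. The animals were healthy, no treatment of them is described in the study's methods, and the tissue was taken at a slaughterhouse and snap frozen. The lobes of the pituitary and the long bone that were sampled are not named in the sources used here, and equal replicate numbers are not said to be the same animal.

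The anterior pituitary forms from oral ectoderm that folds into Rathke's pouch. PITX1 acts in that ectoderm, HESX1 is an early repressor of the pouch, LHX3 and LHX4 are LIM homeodomain factors needed for its growth, and ISL1 is another LIM homeodomain factor of early pouch and gonadotrope and thyrotrope cells. SIX6 promotes the proliferation of pituitary and retinal progenitors, SOX2 marks the progenitors that remain in the adult gland, and MSX1 is a homeobox repressor known from teeth, limbs, skull and pituitary. PITX1 also has a role outside the pituitary, since it sets hind limb identity.

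Between 11433209 and 23573036 reads were counted on genes in a pituitary library, and between 11616518 and 27007342 in a long bone library. Expression is given as CPM, which is the read number scaled to library size and TMM factor within each tissue, and levels of different genes are compared as the authors' RPKM, which is scaled by gene length. The study's threshold was kept, so that a differentially expressed gene (DEG) has an unadjusted P under 0.05 in edgeR's quasi-likelihood test and more than a 2-fold change. The p-values printed are those of the same test after Benjamini-Hochberg adjustment for all genes tested, and many DEGs do not reach 0.05 on this stricter scale. Log2 fold changes are given with their standard error (SE), as DP minus MH or juvenile minus adult. Labels do not say more on the replicates than that they are separate samples of a group, so p-values measure the spread between these samples. The study's methods describe both tissues as taken from one set of DPs and MHs, without saying which libraries share an animal. The comparison of tissues was fitted without an animal term, so its SEs and p-values ignore animals shared between the tissues.

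The label of the tissue was checked against the hormones of the anterior lobe before the transcription factors were examined. GH, growth hormone, lay between 5770 and 22100 CPM in 7 of the 12 pituitary libraries and at 7.36 CPM or less in the other 5, which were all 3 MHPJ libraries, DPPA replicate 1 and MHPA replicate 1. The summed level of the 6 hormone genes measured was 33400 to 41600 CPM in DPPJ and 0.138 to 8.81 CPM in MHPJ. It was 66, 27600 and 14400 CPM in DPPA replicates 1 to 3 and 1.18, 19200 and 29500 CPM in MHPA. Defining markers of the anterior pituitary were therefore at or near 0 in every MHPJ library. No comparison that uses MHPJ could be repeated without these libraries, while adult comparisons are also given without DPPA replicate 1 and MHPA replicate 1.

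Markers of other cells moved with low hormone RNA. The 8 posterior lobe and astrocyte markers summed to 9620 CPM in DPPA replicate 1, 5930 in MHPA replicate 1, and 4480 and 3960 in MHPJ replicates 1 and 3, against 55.8 to 393 CPM in 6 of the 7 libraries with most GH. The exception among these 7 was DPPJ replicate 2 with 3070 CPM, and MHPJ replicate 2 had only 176 CPM. The 5 measured oligodendrocyte markers summed to 3690 to 16800 CPM in the 5 libraries with least GH and to 100 to 1990 CPM in the others. Neuron markers (7 measured) reached 5080, 5900 and 4840 CPM in MHPJ replicates 1 and 3 and DPPA replicate 1 and lay between 693 and 1700 CPM elsewhere. The part of these cells in the differences below was not tested, and in bulk tissue fewer cells of a type cannot be told apart from less RNA per cell.

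In the libraries ordered by GH, the 8 factors fell into different patterns. PITX1 lay between 169 and 319 CPM in the 7 libraries with most GH and between 0.138 and 26.6 CPM in the 5 with least. LHX3 went from 25.5 to 45.5 CPM in the first to at most 2.54 CPM in the second, and SIX6 from 13 to 35.6 CPM to at most 4.51 CPM. MSX1 lay between 137 and 278 CPM in the first and between 2.94 and 107 CPM in the second. For these 4 factors no library with little GH reached any library with much GH, on the CPM and on the RPKM scale, whereas the ranges of ISL1, SOX2, LHX4 and HESX1 overlapped. This order describes the libraries and was not tested. The share of all genes that separate the same libraries in this way was not counted, so nothing particular to these factors is read from it.

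**Figure D1:**
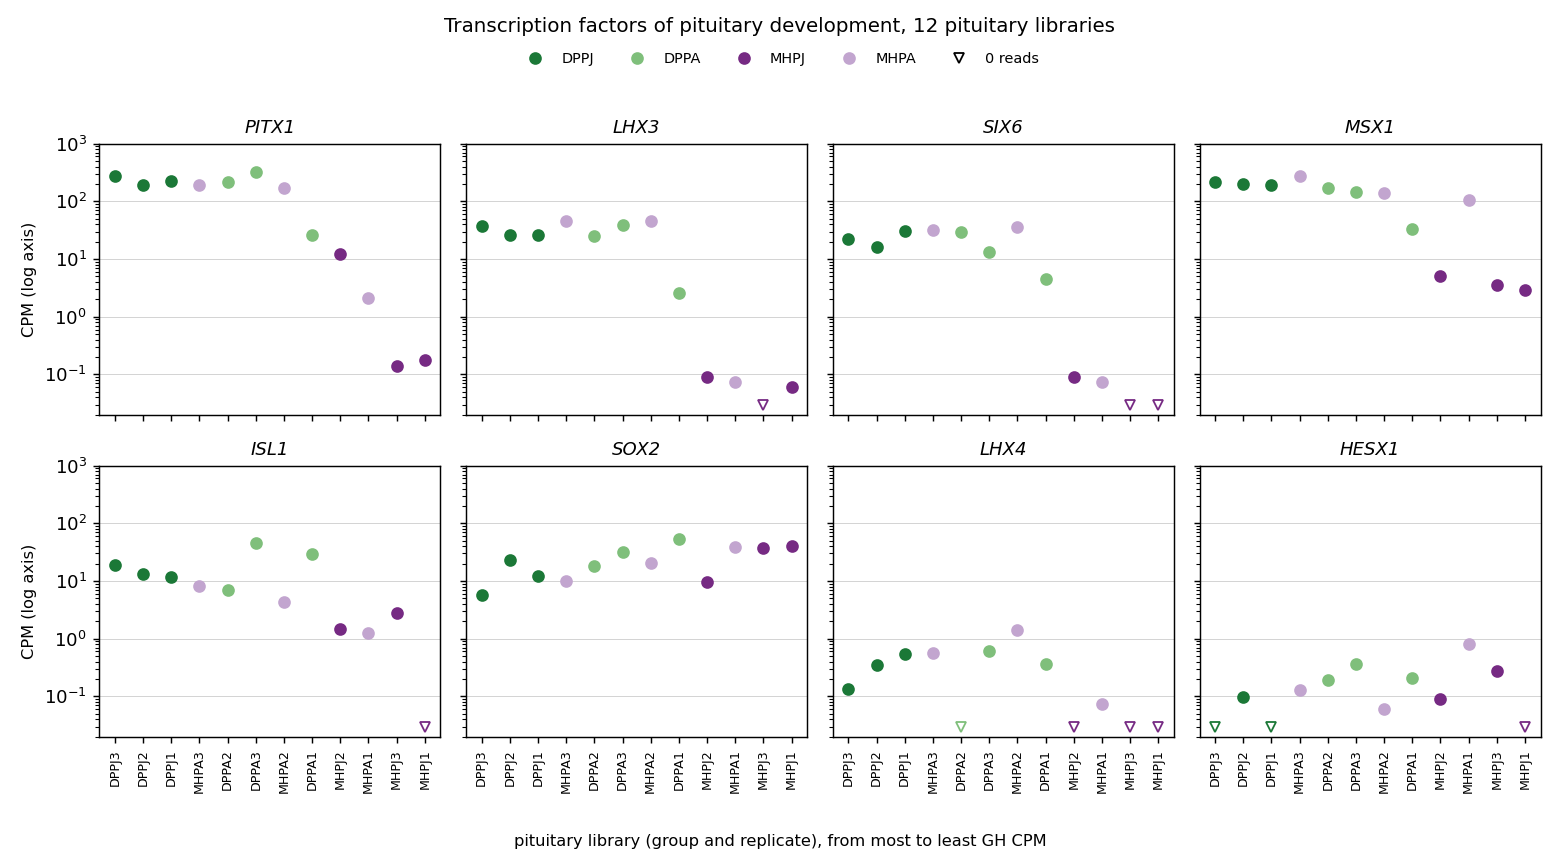
CPM (log axis) of the 8 transcription factors in the 12 pituitary libraries, ordered from most GH (left) to least GH (right) and coloured by group, with open triangles for 0 reads. PITX1, LHX3, SIX6 and MSX1 are lower in the 5 libraries on the right than in the 7 on the left, while SOX2 stays between 5.69 and 52.9 CPM.

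PITX1, the factor of the oral ectoderm, and MSX1 were the most expressed of the 8 in DPPJ, DPPA and MHPA by mean RPKM. It had 223, 193 and 276 CPM in DPPJ replicates 1 to 3 and 0.18, 12 and 0.138 CPM in MHPJ, where 3, 132 and 2 reads were counted. In DPPA it had 26.6, 220 and 319 CPM and in MHPA 2.14, 169 and 194 CPM. The low values in the adult groups are again replicate 1 of each breed, and MHPJ replicate 2 stands above the other 2 juvenile MH libraries.

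LHX3, needed for the pouch to grow, had 26.6, 25.6 and 37.8 CPM in DPPJ and 1, 1 and 0 reads in the MHPJ libraries. Its adult values were 2.54, 25.5 and 39.5 CPM in DPPA and 0.0739, 45.1 and 45.5 CPM in MHPA. SIX6, the progenitor factor, ran beside it with 30.2, 16.4 and 21.9 CPM in DPPJ and 0, 1 and 0 reads in MHPJ. Its adult libraries had 4.51, 29.7 and 13 CPM in DPPA and 0.0739, 35.6 and 31.3 CPM in MHPA. Both factors were thus present in every library with much GH, DP and MH alike, and at 1 read or less in each MHPJ library.

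MSX1 was the member with the highest mean RPKM in DPPJ and MHPA. DPPJ had 196, 202 and 221 CPM and MHPJ 2.94, 5.08 and 3.6 CPM, both with little spread. DPPA had 33.2, 173 and 143 CPM and MHPA 107, 137 and 278 CPM. MHPA replicate 1 is the library in which MSX1 departed from the other 3 factors of its pattern, with 1443 reads of MSX1 beside 1 read each of LHX3 and SIX6 and 29 reads of PITX1.

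ISL1 followed GH less closely. It had 11.8, 13.4 and 18.7 CPM in DPPJ, 0, 1.45 and 2.77 CPM in MHPJ, 29, 7.01 and 45.5 CPM in DPPA and 1.26, 4.34 and 8.23 CPM in MHPA. DPPA replicate 1, with 7.36 CPM of GH, had more ISL1 than 10 of the other 11 pituitary libraries.

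SOX2, the progenitor marker, was present in all 12 pituitary libraries with at least 104 reads. It had 12.3, 23.2 and 5.69 CPM in DPPJ, 40.5, 9.44 and 37.4 CPM in MHPJ, 52.9, 18.3 and 31.5 CPM in DPPA and 38.6, 20.8 and 10 CPM in MHPA. The 4 highest values belonged to 4 of the 5 libraries with least GH, and the fifth of these, MHPJ replicate 2, had the second lowest value of all 12. SOX2 is also expressed by astrocytes and other glia, whose marker sums are given above.

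LHX4 and HESX1 were near the limit of these libraries. LHX4 had 10, 7 and 3 reads in DPPJ, 0 in each MHPJ library, 7, 0 and 12 in DPPA and 1, 24 and 9 in MHPA. HESX1 had at most 11 reads in a library, the highest in MHPA replicate 1, and 36 reads in the 12 pituitary libraries together. A count of 0 allows up to 3 reads, which is 0.18, 0.272 and 0.208 CPM in MHPJ replicates 1 to 3. These limits and the intervals below cover counting error only.

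By RPKM, the order of the members in DPPJ was MSX1 (256 ± 20.8 SD, n = 3), PITX1 (188 ± 35.6), SIX6 (20.8), LHX3 (19.1), SOX2 (11.2), ISL1 (4.47), LHX4 (0.157) and HESX1 (0.0367). MSX1 did not overlap with PITX1 nor PITX1 with SIX6, while SIX6, LHX3, SOX2 and ISL1 overlapped each with the next of these 4. ISL1, at 3.5 to 5.78 RPKM, lay above LHX4, at 0.06 to 0.25 RPKM, without overlap. In MHPJ the order was different, with SOX2 first at 21.4 RPKM, above MSX1 at 4.28 and PITX1 at 2.98 without overlap between SOX2 and MSX1. In DPPA, PITX1 and MSX1 (148 and 135 RPKM) overlapped, as they did in MHPA (110 and 227 RPKM).

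The juvenile breed comparison of the pituitary sets DPPJ against MHPJ. The 6 hormone genes measured summed to 33400 to 41600 CPM in DPPJ and 0.138 to 8.81 CPM in MHPJ. Breed and tissue content therefore cannot be told apart in the differences below. PITX1, LHX3, SIX6, MSX1 and ISL1 were higher in DPPJ than in MHPJ, so that 5 of the 6 members that passed the low-count filter were DEGs, all in this direction, beside 7.6% of all tested genes. The filter asks for a minimum count in 3 libraries, which MSX1 and SOX2 reached in all 3 MHPJ libraries, ISL1 in 2, PITX1 in 1 and LHX3 and SIX6 in 0. So 4 of the 5 passed it through DPPJ, where they are high, and the count is a description. The log2 fold change was 5.70 for MSX1 (SE 0.299, adjusted p = 0.00407), 5.75 for PITX1 (SE 1.75, adjusted p = 0.0859) and 3.34 for ISL1 (SE 1.21, adjusted p = 0.123). For LHX3, 1846 reads in DPPJ stood against 2 in MHPJ, a ratio of 640 at equal depth (95% counting interval 177 to 5290), and for SIX6, 1367 reads stood against 1, a ratio of 949 (170 to 37500). Of the members with enough reads in both groups, MSX1 was the one whose adjusted p was under 0.05, beside 4.15% of all genes. SOX2 was not a DEG, at -1.10 on the log2 scale (SE 0.694, adjusted p = 0.318), and LHX4 was at least 1.56-fold higher in DPPJ when each MHPJ library is set to 3 reads.

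The values of the 3 libraries of each breed did not overlap for PITX1, LHX3, SIX6, MSX1, ISL1 or LHX4, and for SOX2 and HESX1 they did. For LHX4 this rests on 3 to 10 reads in a DPPJ library against 0 in MHPJ. The share of all genes without overlap was not counted, so this is a description. Leaving out MHPJ replicate 2 moved the log2 fold change of PITX1 from 5.75 to 10.44 and made SOX2 a DEG (-1.49). ISL1 was not a DEG without DPPJ replicate 1, 2 or 3 (log2 fold changes 3.48, 3.36 and 3.14).

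**Figure D2:**
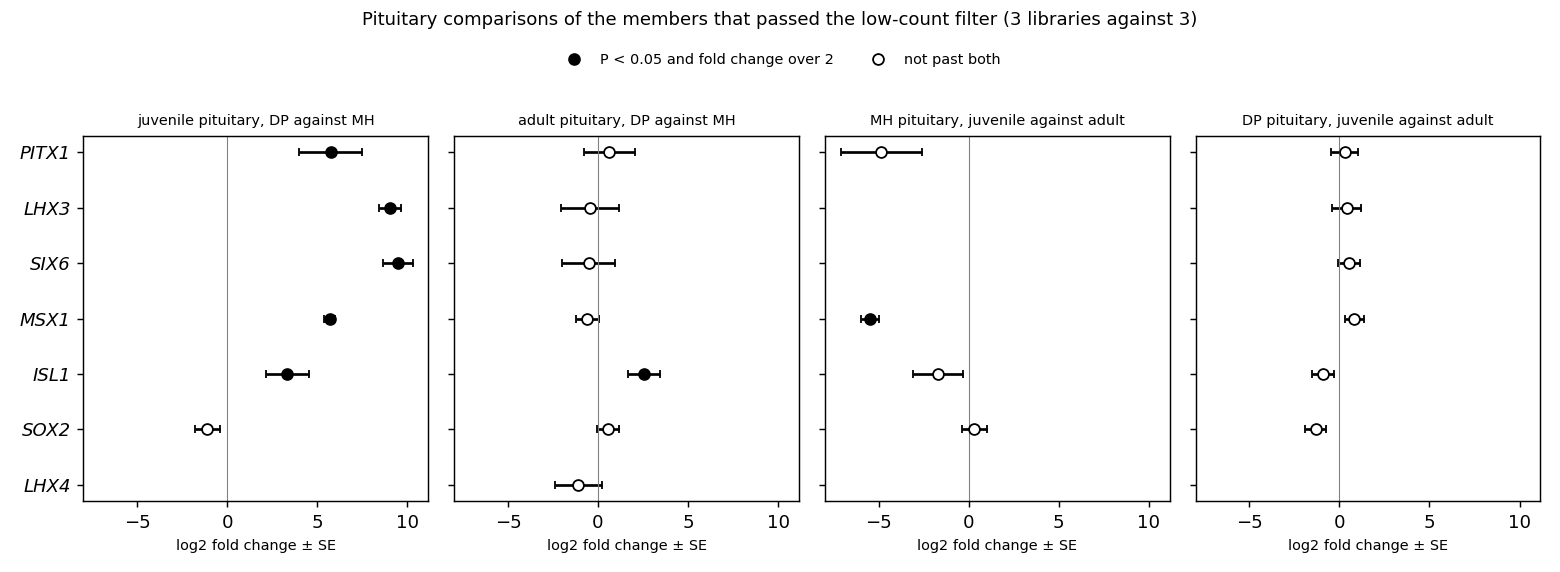
Log2 fold changes ± SE of the members that passed the low-count filter in the 4 pituitary comparisons of 3 libraries against 3, filled where P was under 0.05 and the fold change over 2. PITX1, LHX3, SIX6, MSX1 and ISL1 are filled and to the right of 0 in juveniles, ISL1 alone is filled in adults, and MSX1 alone between the stages of MHs. The fitted values of LHX3 and SIX6 in juveniles rest on 2 and 1 reads in MHPJ and depend on the prior count.

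In adults, ISL1 was the only DEG of the 7 members tested (log2 fold change 2.56, SE 0.891, adjusted p = 0.515), beside 1.75% of all genes higher in DPs. PITX1 had a log2 fold change of 0.63 (SE 1.42), MSX1 of -0.59 (SE 0.647), SOX2 of 0.54 (SE 0.601), LHX3 of -0.43, SIX6 of -0.51 and LHX4 of -1.09, none of them a DEG. Each adult group held 1 library with little GH and 2 with much. Without the 2 libraries with little GH, DPPA replicate 1 and MHPA replicate 1, ISL1 remained a DEG (2.04), PITX1 had a log2 fold change of 0.55, less than the fold required, and LHX3 and SIX6 had -0.50 and -0.68, which did not pass. ISL1 was not a DEG when DPPA replicate 1 or 3 or MHPA replicate 1 or 2 was left out alone (log2 fold changes 1.97 to 2.50).

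Between the stages, MSX1 was lower in juveniles of MHs than in adults (log2 fold change -5.48, SE 0.515, adjusted p = 0.188), with 2.94 to 5.08 CPM in MHPJ and 107 to 278 CPM in MHPA. It was the only DEG of the 4 members tested, beside 3.24% of all genes lower in juveniles. The hormone genes summed to 0.138 to 8.81 CPM in MHPJ and to 1.18, 19200 and 29500 CPM in MHPA replicates 1 to 3. Stage and tissue content therefore cannot be told apart in this comparison. PITX1 was at -4.86 on the log2 scale (SE 2.26, adjusted p = 0.462), ISL1 at -1.70 (SE 1.40, adjusted p = 0.632) and SOX2 at 0.30 (SE 0.693, adjusted p = 0.878). LHX3 and SIX6 were above 1 read in 2 of these 6 libraries, MHPA replicates 2 and 3, and did not pass the filter. PITX1 became a DEG when MHPA replicate 1 (-5.45) or MHPJ replicate 2 (-9.52) was left out, and the number of DEGs among the members ranged from 1 to 4 when single libraries were left out.

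In DPs, no member was a DEG between the stages by edgeR's quasi-likelihood test (0 of 6 tested, with 0 at an unadjusted P under 0.05), beside 3.56% of all genes in either direction. SOX2 came nearest, at -1.32 on the log2 scale (SE 0.591, adjusted p = 0.442), and DESeq2 called it (-1.33). MSX1 had 0.83 (SE 0.534), PITX1 0.29 (SE 0.747) and ISL1 -0.91 (SE 0.615). Without DPPA replicate 2, SOX2, ISL1 (both lower in juveniles) and SIX6 (higher) passed, with log2 fold changes of -1.63, -1.36 and 1.37, and SOX2 passed without DPPJ replicate 2 (-1.93).

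The difference between breeds was itself compared between the stages over all 12 pituitary libraries. PITX1, LHX3, SIX6, MSX1 and LHX4 had a larger excess in DPs at the juvenile than at the adult stage (5 of 7 tested, beside 6.8% of all genes), and 0 of these had an adjusted p under 0.05. LHX3, SIX6 and LHX4 had 2, 1 and 0 reads in all of MHPJ and passed the filter through the other groups, so the count is a description. MSX1 had the lowest p of the members (log2 difference 6.32, adjusted p = 0.106). For ISL1 the log2 difference was 0.82 (adjusted p = 0.773), and for SOX2 it was -1.65 (adjusted p = 0.353). PITX1 had 5.21 (adjusted p = 0.242) and no longer passed when any 1 of 10 of the 12 libraries was left out. The exceptions were MHPA replicate 1 and MHPJ replicate 2, without which it had 5.80 and 9.80.

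Other genes of pituitary development, hormone lineages and pouch signalling were taken from fixed lists. Of the 12 early patterning factors with a symbol in the files, 10 were tested in juveniles, with 5 DEGs higher in DPPJ, 1 lower and 4 that did not pass, beside 7.6% of all genes higher and 12.7% lower. Of the 6 DEGs, 3 had the minimum count in fewer than 3 MHPJ libraries and passed the filter through DPPJ. EYA1, a transcriptional coactivator, was higher (log2 fold change 3.16, SE 0.367, adjusted p = 0.0138) as was TBX3 (1.86, SE 0.37, adjusted p = 0.0353), whereas the co-repressor TLE1 was lower (-2.22, SE 0.371, adjusted p = 0.0254).

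Of the 10 lineage factors with a symbol, 9 were tested in juveniles and 8 were DEGs, all higher in DPPJ, beside 7.6% of all genes. As 6 of these 8 had the minimum count in fewer than 3 MHPJ libraries and passed the filter through DPPJ, the count is a description. POU1F1, the factor of GH, PRL and TSHB cells, had 145 to 191 CPM in DPPJ and 0 to 0.272 CPM in MHPJ. TBX19, of the POMC cells, had 26.8 to 78.6 against 0.3 to 0.726 CPM, and SF-1 (NR5A1), of the gonadotropes, had 25.5 to 30 against 0.0908 to 0.346 CPM. With 3, 20 and 9 reads in MHPJ, these 3 factors passed the filter through DPPJ. GATA2, with enough reads in both groups, was 1.92 higher on the log2 scale (SE 0.465, adjusted p = 0.0527).

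The 7 pouch signals that could be tested in juveniles included 1 DEG, the receptor NOTCH2, which was lower in DPPJ (log2 fold change -1.16, SE 0.391, adjusted p = 0.107), and 6 that did not pass. Over all genes, 12.7% were lower and 7.6% higher, so nothing about the pouch signals is read from this count. Each of the 6 hormone genes tested was higher in DPPJ, beside 7.6% of all genes. All 6 passed the filter through DPPJ, so the count is a description. Of 8 pituitary stem cell markers, ALDH1A2 and EPCAM were higher, GFRA2 was lower and 5 did not pass, among them SOX9 (-1.17, SE 0.70, adjusted p = 0.294). Beside these counts stand the same 7.6% of all genes higher and 12.7% lower. GFRA2 had the minimum count in 2 DPPJ and 3 MHPJ libraries and so passed the filter through MHPJ. The median log2 fold change in juveniles was 5.72 over the 6 members tested, 1.02 over the 10 early patterning factors, 3.95 over the 9 lineage factors and -0.38 over the 7 pouch signals, with -0.07 over all 14603 genes tested. These medians hold the genes that passed the filter through DPPJ and are descriptions.

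In adults, 0 of 12 early patterning factors, 0 of 10 lineage factors, 0 of 7 pouch signals and 0 of 6 hormone genes tested were DEGs between the breeds by edgeR's quasi-likelihood test, beside 2.93% of all genes in either direction. With so low a share over all genes, nothing about the lists is read from these counts. None of them had an unadjusted P under 0.05 by this test, which was the only tool run on the lists, and the lowest p was that of OTX2 (log2 fold change -2.43, SE 1.13, adjusted p = 0.583). Between the stages of MHs, OTX2, an early patterning factor of the head and pouch, was lower in juveniles (log2 fold change -7.19, SE 1.35, adjusted p = 0.321, with 155, 28 and 12.4 CPM in MHPA), as were TBX3, EYA1, TBX19 (-8.01) and PAX7 (-5.11), and TLE1 was higher. This made 5 DEGs of 11 early patterning factors and 2 of 6 lineage factors tested, beside 7.74% of all genes in either direction. Of these DEGs, 2 early patterning and 2 lineage factors had the minimum count in fewer than 3 MHPJ libraries, so the counts are a description. Stage and tissue content cannot be told apart in this comparison of MHPJ with MHPA. In DPs, 1 of 12 early patterning factors passed between the stages, TBX3, which was lower in juveniles (-1.30, SE 0.374, adjusted p = 0.419), and 0 of 10 lineage factors. Over all genes, 3.56% passed in either direction in this comparison.

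**Figure D3:**
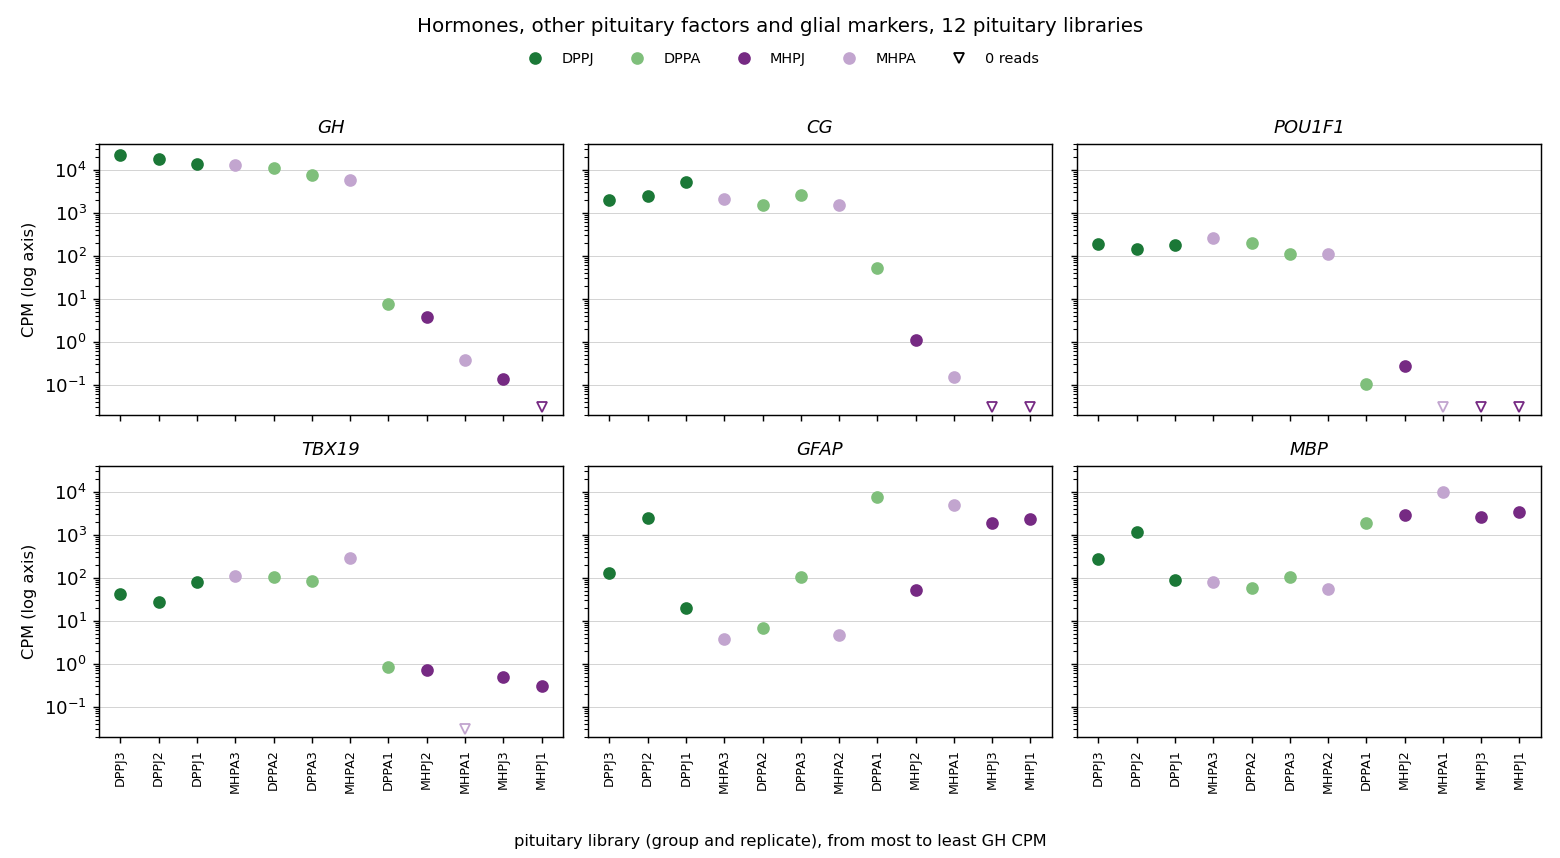
CPM (log axis) of the hormone genes GH and CG, the factors POU1F1 and TBX19, and the glial markers GFAP and MBP in the 12 pituitary libraries, in the same order as the plot of the 8 factors. POU1F1 and TBX19 are lowest in the 5 libraries on the right, and MBP is between 1840 and 10000 CPM in those 5 libraries and at most 1130 CPM in the others.

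Likeness over the 12 pituitary libraries was described with Pearson's r of log2 CPM among 12896 genes, all points of which share the libraries and their depth. LHX3 and SIX6 were most alike among the members (r = 0.986). CG, annotated as the alpha chain of the glycoprotein hormones, had 0.987 with both. PITX1 had 0.947 and 0.951 with LHX3 and SIX6, and the genes most like it included TEP1 (0.979) and DLK1 (0.974). MSX1 was most like ALDH1A2 (0.979), an enzyme of retinoic acid synthesis, TCF21 (0.971) and EMB (0.969). ISL1 had no gene above 0.888 (PGF), followed by TMEM54 (0.882) and MTL5 (0.88). SOX2 was most like ZHX3 (0.969), GJB6 (0.954) and APOE (0.953), and its r with the other members measured lay between -0.226 and -0.542.

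Against the long bone, 6 of the 7 members tested were higher in the pituitary, beside 21.5% of all genes (21.2% with an adjusted p under 0.05). SOX2, ISL1, LHX3 and SIX6 had the minimum count in 1, 2, 0 and 0 of the 12 long bone libraries and so passed the filter through the pituitary, which makes the count a description. SOX2 had the largest fitted log2 fold change (8.36, SE 0.635), with 104 to 1020 reads in a pituitary library and at most 13 in a long bone library. LHX3 and SIX6 had at most 3 and 4 reads in any long bone library and up to 844 and 623 in the pituitary. ISL1 was 4.85 higher on the log2 scale (SE 0.817), PITX1 3.97 (SE 0.734, adjusted p = 1.32e-04) and MSX1 1.38 (SE 0.257, adjusted p = 1.41e-04). LHX4 was tested and had no reads in whole groups, so only its reads are given, 73 in the 12 pituitary and 6 in the 12 long bone libraries. HESX1 had 36 and 19 reads and was not tested. The 3 MHPJ libraries were exceptions to this order. They had 3.42 to 5.6 RPKM of MSX1, below the 8.85 to 45.84 RPKM of all 12 long bone libraries, and 0.1 to 8.71 RPKM of PITX1, within the 0.1 to 11.89 RPKM of the long bone.

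In the long bone only PITX1 and MSX1 had enough reads to be tested. MSX1 was not a DEG in any long bone comparison. It had 21, 21.2 and 6.68 CPM in DPLBJ, 17.7, 26.4 and 21.1 CPM in DPLBA, 25.1, 24.7 and 21.2 CPM in MHLBJ and 14.1, 33.2 and 21.7 CPM in MHLBA. The log2 differences were -0.49 (SE 0.461, adjusted p = 0.621) between juveniles of the breeds, -0.09 (SE 0.363, adjusted p = 0.906) between adults, 0.01 (SE 0.33, adjusted p = 0.998) between the stages of MHs and -0.42 (SE 0.477, adjusted p = 0.992) between those of DPs. The groups overlapped in each of these comparisons as CPM, in juveniles of the breeds only just (21.20 CPM at most in DPLBJ and 21.16 at least in MHLBJ). As RPKM the juvenile groups did not overlap, with 8.85 to 25.56 RPKM in DPLBJ and 28.74 to 33.49 RPKM in MHLBJ, and the other groups did.

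PITX1 in the long bone ranged from 0.114 to 14.1 CPM. MHLBJ had 12.5, 14.1 and 10.2 CPM and MHLBA 4.66, 12.2 and 6.99 CPM, while DPLBJ had 0.148, 6.4 and 5.73 CPM and DPLBA 0.114, 0.461 and 0.85 CPM. The 3 DPLBA libraries and DPLBJ replicate 1 were thus low, with 2 to 17 reads, and the other 2 DPLBJ libraries lay among those of MHs. In adults PITX1 was lower in DPs than in MHs (log2 fold change -4.04, SE 0.756, adjusted p = 0.0422), 1 DEG of 2 members tested, beside 8.03% of all genes lower in DPs and 0.497% with the adjusted p. It had the minimum count in 1 DPLBA library and passed the filter through MHLBA. It remained a DEG without any 1 of the 6 libraries (-4.74 to -3.56).

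In juveniles, PITX1 was not a DEG between the breeds (log2 fold change -1.55, SE 0.947, adjusted p = 0.434, 0 of 2 members called and 0 at an unadjusted P under 0.05 by edgeR, beside 13.8% of all genes), while limma on log2(RPKM + 1) called it (-1.78). Between the stages of DPs it was higher in juveniles (3.06, SE 1.21, adjusted p = 0.988, beside 1.58% of all genes higher), a call that was lost when DPLBJ replicate 2 or 3 or any DPLBA library was left out (log2 fold changes 2.60 to 3.77). Between the stages of MHs it had 0.59 (SE 0.399, adjusted p = 0.998), with 0 of 2 members called by edgeR, 0 at an unadjusted P under 0.05, beside 2.91% of all genes, and it passed without MHLBA replicate 2 (1.06).

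PITX1 is a factor of the hind limb, so the other limb identity factors were set beside it. Of the 6 on the list, 5 were tested in adults, with 1 higher in DPs, 1 lower and 3 that did not pass, beside 10.3% of all genes higher and 8.03% lower. TBX5, the T-box factor of the fore limb, had 17.1 CPM in DPLBJ replicate 1 and 11.4, 12.6 and 23.7 CPM in DPLBA, the 4 libraries with little PITX1. In the other 8 long bone libraries it lay between 0.133 and 1.82 CPM. HOXC10, a posterior HOX gene of the hind limb, had 0 reads in the same 4 libraries and 12 to 170 reads in the other 8. In adults TBX5 was higher in DPs (log2 fold change 3.75, SE 0.749, adjusted p = 0.0498) and HOXC10 was lower, with 0 reads in DPLBA and 222 in MHLBA, having passed the filter through MHLBA. TBX5 had the minimum count in 3 DPLBA and 2 MHLBA libraries and so passed the filter through DPLBA, where it was high. Both calls are therefore descriptions. TBX4, the T-box factor of the hind limb, did not follow PITX1, with 1.7 to 3.56 CPM in the 4 libraries and 1.48 to 4.75 CPM in the other 8 (adults, log2 fold change -0.50, SE 0.57, adjusted p = 0.625). Neither did the HOX genes HOXD10, with 3.06 to 47.3 CPM in the 4 libraries and 2.46 to 24.5 CPM in the other 8 (-0.15, SE 0.656, adjusted p = 0.916), and HOXA10, with 24.1 to 43.3 and 3.64 to 33.3 CPM (0.68, SE 0.662, adjusted p = 0.566). HOXC11 had at most 16 reads in a long bone library and was not tested in adults. The sampled limb is not in the labels, and its part in the difference in PITX1 was not tested.

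The 7 measured markers of bone, cartilage and marrow summed to 6990 to 24900 CPM in DPLBA and 412 to 3560 CPM in MHLBA. Of these 7, 3 were DEGs, all higher in DPLBA, beside 10.3% of all genes, namely IBSP, a matrix protein of bone (log2 fold change 2.68, SE 0.682, adjusted p = 0.079), ACAN of cartilage (4.50) and MPO of marrow (5.38). MPO had the minimum count in 1 MHLBA library and passed the filter through DPLBA, where it was high, so the count is a description. COL2A1, CTSK, ACP5 and BGLAP did not pass, and BGLAP, the bone protein osteocalcin, had the opposite sign (-1.42, SE 1.45, adjusted p = 0.587), with 0 to 42.2 CPM in DPLBA and 25.1 to 146 CPM in MHLBA. Among the skeletal partners of MSX1, SP7 and DLX5, factors of the osteoblast lineage, were higher in adult DPs (2.85, SE 0.677, and 1.84, SE 0.616) and 4 of the 6 tested did not pass, among them MSX2 (1.50, SE 0.777, adjusted p = 0.28). The part of bone cell content in the difference in PITX1 was not tested.

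**Figure D4:**
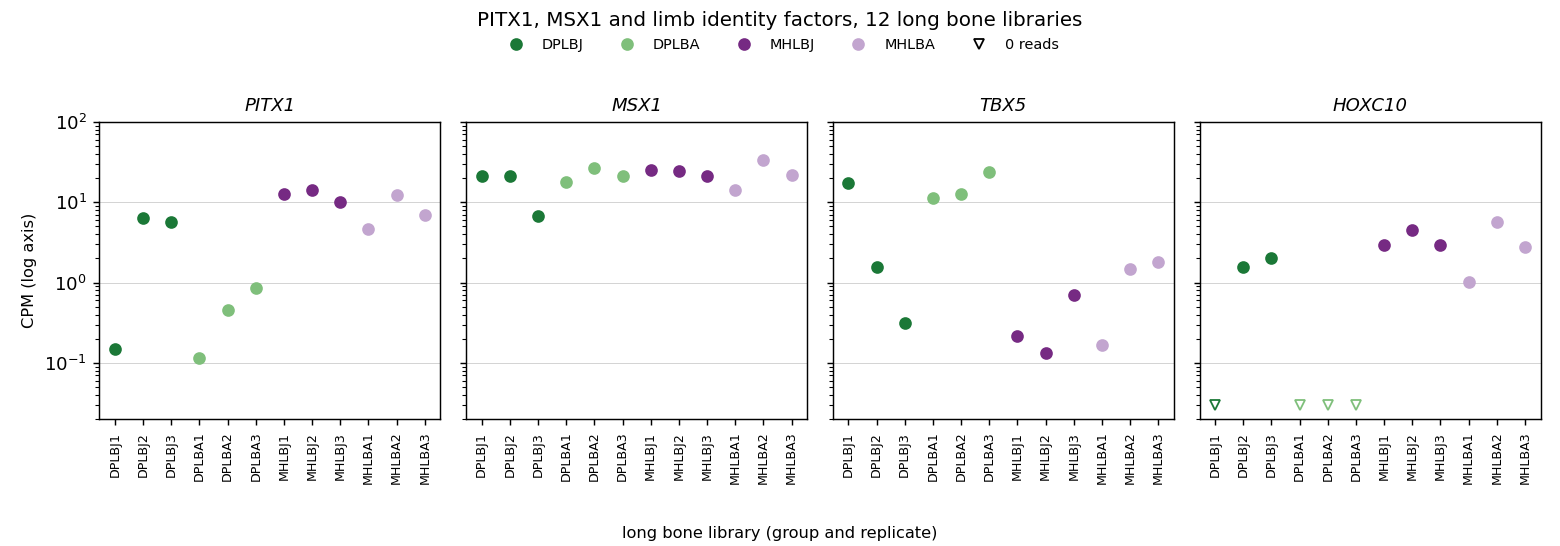
CPM (log axis) of PITX1, MSX1, TBX5 and HOXC10 in the 12 long bone libraries by group and replicate, with open triangles for 0 reads. DPLBJ replicate 1 and the 3 DPLBA libraries have under 1 CPM of PITX1, 0 reads of HOXC10 and 11.4 to 23.7 CPM of TBX5, while MSX1 lies between 6.68 and 33.2 CPM in all 12.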

How the data were processed

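Total RNA was depleted of ribosomal RNA and sequenced from directional libraries. The sources differ on the sequencer and on single-end or paired-end reads. The authors deposited whole-number read counts per gene, not normalized, and RPKM values per gene (scaled by gene length and library size). Submitters' processing notes name bcl2fastq, TopHat2 and edgeR, and the study's methods name Btrim, Salmon and EquCab 3.0, while the tool that made the counts is not given in the sources used here. Strand use in counting is not given either. The RPKM of the 8 members agreed within 2% with the values their reads give in every library with 50 reads or more.

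Counts were tested with edgeR 4.0.16 in R 4.3.3 (glmQLFTest, TMM, filterByExpr with a minimum count of 10), over the 6 libraries of a pair of groups, over 12 pituitary libraries for breed by stage and over 24 for tissue. The edgeR test was checked on simulated counts for the juvenile pituitary comparison, with 199 genes changed 8-fold. It called 100% of these and 1.1% of the unchanged genes. The simulation gave every gene the same relative spread, at a fixed value not estimated from these data, and held no library that stood apart. It therefore does not cover such libraries here, and the share called does not measure the power of the test in these data. Alternatives were DESeq2 1.42.0, limma 3.58.1 on log2(RPKM + 1) and log2(RPKM + 0.1), no TMM, no filter, all 12 libraries of a tissue, a replicate block and leaving out each library. Replicate numbers are not tied to animals. In adults of both breeds, same-numbered pituitary libraries deviated together (r = 0.339 to 0.64 for 3 of 3 pairs). Replicate 1 was low in GH in both, and deviations from a mean of 3 libraries depend on each other. The correlations therefore do not show that the numbers pair these libraries. The replicate block was run as an alternative only, and it changed no call there. Members were matched by symbol, CG and SF-1 by their description in the files. SIX3, SOX3, TLE5, FOXL2, NOG, LHB, KRT8, KRT18, NEFL, OLIG2, CFAP126, DLX3 and COL1A1 of the lists were not analysed here. The members and lists were chosen with earlier results of these data known. All 8 members are named, other lists by counts with the hormones and main factors and at most 4 further DEGs of lowest P. Some genes that this rule or the likeness ranking would name are not reported here by name, but stay in the counts. Genome sequence was not used here.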

Additional observations from a re-analysis of the deposited data

Results flagged for a closer look

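The breed difference of juveniles minus that of adults passed for 5 of the factors, by a test over the 12 pituitary libraries with edgeR at an unadjusted P under 0.05, beside 6.8% of all genes, and for 0 of them with an adjusted p under 0.05. LHX3, SIX6 and LHX4 had 2, 1 and 0 reads in all of MHPJ and passed the low-count filter through the other groups, so their values are descriptions. LHX3 had a log2 difference of 9.52 (adjusted p = 0.153) and SIX6 one of 10.00 (adjusted p = 0.150), both with at most 1 read in each MHPJ library. MSX1 had 6.32 (adjusted p = 0.106) and PITX1 5.21 (adjusted p = 0.242). LHX4 had 6.69 (adjusted p = 0.207) on 20, 0, 19 and 34 reads in DPPJ, MHPJ, DPPA and MHPA, so that its size depends on the prior count, and it did not pass without DPPJ replicate 1 or MHPA replicate 2 (6.17 and 5.62). Without both adult libraries under 10 GH CPM, a choice made after the data were seen, all 5 passed, with log2 differences of 9.58, 10.17, 6.13, 5.24 and 7.32 in the same order. All 3 MHPJ libraries were low in hormone RNA, and the part of tissue content in these differences was not tested.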

How the results depend on the processing

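Counts of members called moved with the adjusted p, with other fits and with single libraries left out. With a Benjamini-Hochberg adjusted p under 0.05 from edgeR's test, 3 members were left between juvenile pituitaries of the breeds (5 by the main rule), of which LHX3 and SIX6 had at most 1 read in each MHPJ library, and 0 between adult pituitaries, between the pituitary stages of MHs, between the long bone stages of DPs (1 each) and for breed by stage (5). In the adult pituitary limma on log2(RPKM + 0.1) called 0. Between the pituitary stages of MHs, 2 members were called by DESeq2, 2 with the replicate block, 4 when low counts were kept and 5 in a fit of 12 libraries. In the DP pituitary DESeq2 and no filter each called 1, in the juvenile long bone limma on log2(RPKM + 1) called 1, and between the long bone stages of DPs limma on either scale called 0. Leaving out 1 library gave 4 to 6 members between juvenile pituitaries, 0 to 1 between adult ones, 1 to 4 between the pituitary stages of MHs, 0 to 3 in DPs, 0 to 0 and 1 to 1 in the juvenile and adult long bone, 0 to 1 between the long bone stages of either breed, 5 to 6 between tissues and 3 to 6 for breed by stage. The 5 between tissues came without MHPJ replicate 2, when MHPJ had no SIX6 read left and SIX6, with a fitted log2 fold change of 6.68, was no longer called. Apart from the fewer samples or genes in some settings, the cause was not tested.

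Some directions turned, all of them in values that were no call. Between adult pituitaries, SIX6 had a log2 fold change of 0.08 and 0.86 with limma on log2(RPKM + 1) and log2(RPKM + 0.1) and 0.34 with the replicate block, and LHX3 had 0.66 with limma on log2(RPKM + 0.1) and 0.32 with the block. MSX1 between adult long bones had 0.08 and 0.09 with limma. Without single libraries, LHX3 ranged from -1.10 to 0.11 between adult pituitaries (above 0 without DPPA replicate 1) and from -0.12 to 1.09 between the DP stages, PITX1 from -0.23 to 0.90 between the DP stages, SOX2 from -0.02 to 0.90 between the MH stages, and MSX1 from -0.34 to 0.30 between adult long bones and from -0.25 to 0.39 between the MH bone stages. The replicate block, which rests only on a shared number, moved PITX1 to 8.21 between juvenile pituitaries, left the same number of members called there and made PITX1 a DEG between the MH stages (-5.43). For breed by stage LHX4 no longer passed with the block (6.62) or with limma (0.43 and 2.03). Scaling moved the median log2 fold change of all genes by over 0.1, for example from -0.01 to -0.22 without TMM between adult pituitaries and from -0.04 to 0.24 for breed by stage. LHX4 and HESX1 had at most 24 and 11 reads in a pituitary library, and the part of depth in this was not tested.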

Other observations

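MHPA replicate 1 held pituitary factors in a combination seen in no other library. OTX2 was at 155 CPM there and at 0.0908 to 28 CPM in the other 11 pituitary libraries, MSX2 at 10.00 CPM against 0 to 6.87, and MBP, of myelin, at 10000 CPM, while POU1F1 and TBX19 had 0 reads. ALDH1A2, the gene most like MSX1, was at 47.7 CPM in this library and at 2.72 to 4.8 CPM in MHPJ.

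MHPJ replicate 2 also stood apart. S100B was at 3540 CPM, the epithelial cadherin CDH1 at 160 CPM and the cartilage collagen COL2A1 at 202 CPM, where the other 11 pituitary libraries had at most 1860, 20 and 9.02 CPM. Its SOX2 and PAX6, at 9.44 and 0.0908 CPM, were below those of MHPJ replicates 1 and 3 (40.5 and 37.4 CPM of SOX2, 37 and 22.6 CPM of PAX6), and its PITX1, at 12 CPM, was above them.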
